A study of Mus musculus with 26 samples.

Results

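The 10 genes described here encode chaperones and proteases that keep the proteins of mitochondria folded and remove those that are damaged. They were chosen by name, for what their products are known to do, but with earlier results of these data known. The shares given below are to be read with that limit. Those over all genes tested include genes with few counts, and none was taken among genes with counts like those of the 10. The deposited table holds 55487 genes, of which these are 10. They are *Hspd1* and *Hspe1*, *Hspa9* and *Dnaja3*, *Lonp1*, *Clpp* and *Clpx*, and *Yme1l1*, *Afg3l2* and *Oma1*. All 10 had counts in every library, between 42 and 7981 counts per library, and all 10 were tested in every comparison.

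RNA was sequenced from pieces of the proximal small intestine (SI) of 26 mice with *loxP*-flanked alleles of 1 gene on both chromosomes, on the C57BL/6N background, aged 8 to 12 weeks. Knockout mice (labelled tg) carried the *Villin-creERT2* transgene, a Cre recombinase of intestinal epithelial cells (IECs) that tamoxifen activates, and control mice (labelled wt) were, by the study's methods, littermates without it. Both genotypes were injected with tamoxifen on 5 days in a row, and the tissue was taken 3 days (7 knockout and 7 control mice) or 7 days (6 and 6 mice) later. A piece holds epithelium, lamina propria and muscle, and the Cre acts in the epithelium, so each value averages over cells with and without the deletion, and fewer cells of a type cannot be told apart from less RNA per cell.

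Most mitochondrial proteins are made in the cytosol and pulled unfolded into the matrix, where mtHSP70 (HSPA9) draws them in and HSP60 (HSPD1) with its lid HSP10 (HSPE1) folds them. LONP1 and the CLPXP complex degrade matrix proteins, and YME1L1, AFG3L2 and OMA1 cut or degrade proteins of the inner membrane. When mitochondrial proteins misfold or mitochondrial translation fails, cells can raise transcripts of these genes in what is called the mitochondrial unfolded protein response, in which the transcription factors ATF5, ATF4 and CHOP (*Ddit3*) take part. The intestinal epithelium is renewed within days and its absorptive cells are rich in mitochondria.

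*Hspd1* and *Hspe1* lie head to head on chromosome 1 and share their promoter, which carries letters of the heat shock element, the binding site of heat shock factors built from inverted GAA units. A stretch of this promoter, *Lonp1* upstream sequence and *Yme1l1* upstream sequence are shown because these genes are the shared-promoter pair, the member with the largest rise and the member without one. The sequences are from RefSeq on GRCm38.p6, each given 5′ to 3′, with matched motifs in capitals.
*Hspd1* and *Hspe1*, chr1:55088053-55088082, plus strand: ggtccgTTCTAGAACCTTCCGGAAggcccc
*Lonp1*, chr17:56626904-56627153, minus strand: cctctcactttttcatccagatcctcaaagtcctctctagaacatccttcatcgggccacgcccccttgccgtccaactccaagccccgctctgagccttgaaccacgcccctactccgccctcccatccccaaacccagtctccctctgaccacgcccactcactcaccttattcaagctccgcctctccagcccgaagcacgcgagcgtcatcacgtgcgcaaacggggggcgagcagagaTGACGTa
*Yme1l1*, chr2:23156255-23156368, plus strand: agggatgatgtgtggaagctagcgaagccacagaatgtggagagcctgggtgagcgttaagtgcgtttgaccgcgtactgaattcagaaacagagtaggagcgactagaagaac
In the first, the capitals hold TTCNNGAA, GAANNTTC and again TTCNNGAA, which overlap one another; this stretch also lies in the 5′ exon of an alternative *Hspd1* transcript. In the second, they mark TGACGT, the core of a cAMP response element, with its first base at -7 from the annotated start. Windows of 300 bases (250 before to 50 after the start) were searched for 8 of the 10 genes. These were 9 windows in all, since *Hspd1* has 2 starts, and one *Hspd1* window shared 285 bases with that of *Hspe1*. *Hspa9* and *Afg3l2* were left out of the search, so the counts of windows that follow say nothing of their promoters. On both strands, TTCNNGAA was in 3 of the 9 windows (*Hspd1*, *Hspe1* and, at 34 bases after the start, *Clpp*) against 8.52% of 32851 promoters, GAANNTTC was in 2 of 9 (*Hspd1* and *Hspe1*) against 7.86%, and TGACGT was in 1 of 9 (*Lonp1*) against 7.51%. The composite element TGATGNAA, which dimers of ATF4 or CHOP with C/EBP proteins can bind, was in 0 of 9 windows and in 3.97% of all promoters. These are matches of letters and say nothing of binding.

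Levels are given as CPM, a gene's count scaled to a common library total. The libraries hold 3′ ends of transcripts, so a CPM is not divided by gene length, and levels are compared between mice and not between genes. Differences are log2 fold changes ± SE between genotypes from edgeR's quasi-likelihood test with TMM normalization, which rescales the libraries so that most genes keep their level, and a gene was called at a Benjamini-Hochberg adjusted p under 0.05 over all genes tested. Library totals were between 3720168 and 6338016 counts.

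The libraries differed in their cell content. Epithelial markers were detected in every library, but the summed level of 10 enterocyte markers was 731 CPM in knockout replicate 1 and 888 CPM in control replicate 5 of day 3, while the other 24 libraries had at least 2284 CPM. These 2 libraries also held stomach markers at 633 and 5445 CPM, as did 1 control library of day 7 (5330 CPM), and pancreatic acinar markers reached 23936 CPM in another library. Between genotypes at 3 days, 0 of 57 marker genes tested (epithelium, enterocyte, crypt, Paneth, goblet, smooth muscle, lymphoid, pancreas, stomach) passed with edgeR and 1, a crypt marker, with DESeq2, while 8 had an unadjusted p under 0.05. At 7 days, 9 of 10 enterocyte markers and 6 of 6 crypt markers were lower in knockout mice. Of 8 general epithelial markers 5 were lower and 1 higher, of 6 lymphocyte and plasma cell markers tested 4 were lower and 1 higher, and 0 of 7 smooth muscle markers passed. Enterocyte sums at 7 days were 3493 to 5195 CPM in knockout and 16222 to 31443 CPM in control mice, and crypt sums were 122 to 206 and 664 to 825 CPM. The changes of the 10 genes at 7 days stand beside these shifts, and the part of the cell content in them was not tested.

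At 3 days, *Lonp1* and *Hspa9* were higher in knockout mice and the other 8 genes did not pass the threshold. The 2 called genes are 20% of the 10, against 1.43% of the 20760 genes tested that were called in either direction and 1.11% called higher. With TMM all 10 log2 fold changes were above 0, with a median of 0.45 against -0.03 over all genes tested. With library totals *Clpx* was at -0.005. Other lists were as one-sided: 6 of 6 goblet markers (median 0.62) and 7 of 7 smooth muscle markers (0.19) were above 0. Of crypt markers 2 of 6 were, and of lymphocyte and plasma cell markers 1 of 7. For none of the 10 did the groups separate fully at 3 days, which 0.356% of all genes did in the upward direction.

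At 7 days, 9 of the 10 were higher in knockout mice, and *Yme1l1* did not pass. Of all 20259 genes tested at this day, 38.5% were called and 19.7% were called higher. In 7 of the 10 genes every knockout mouse lay above every control mouse, against 11.0% of all genes. Their median log2 fold change was 0.78, against -0.02 over all genes. *Lonp1*, *Hspa9* and *Dnaja3* rose at least 2-fold, as 6.92% of all genes did.

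**Figure D1:**
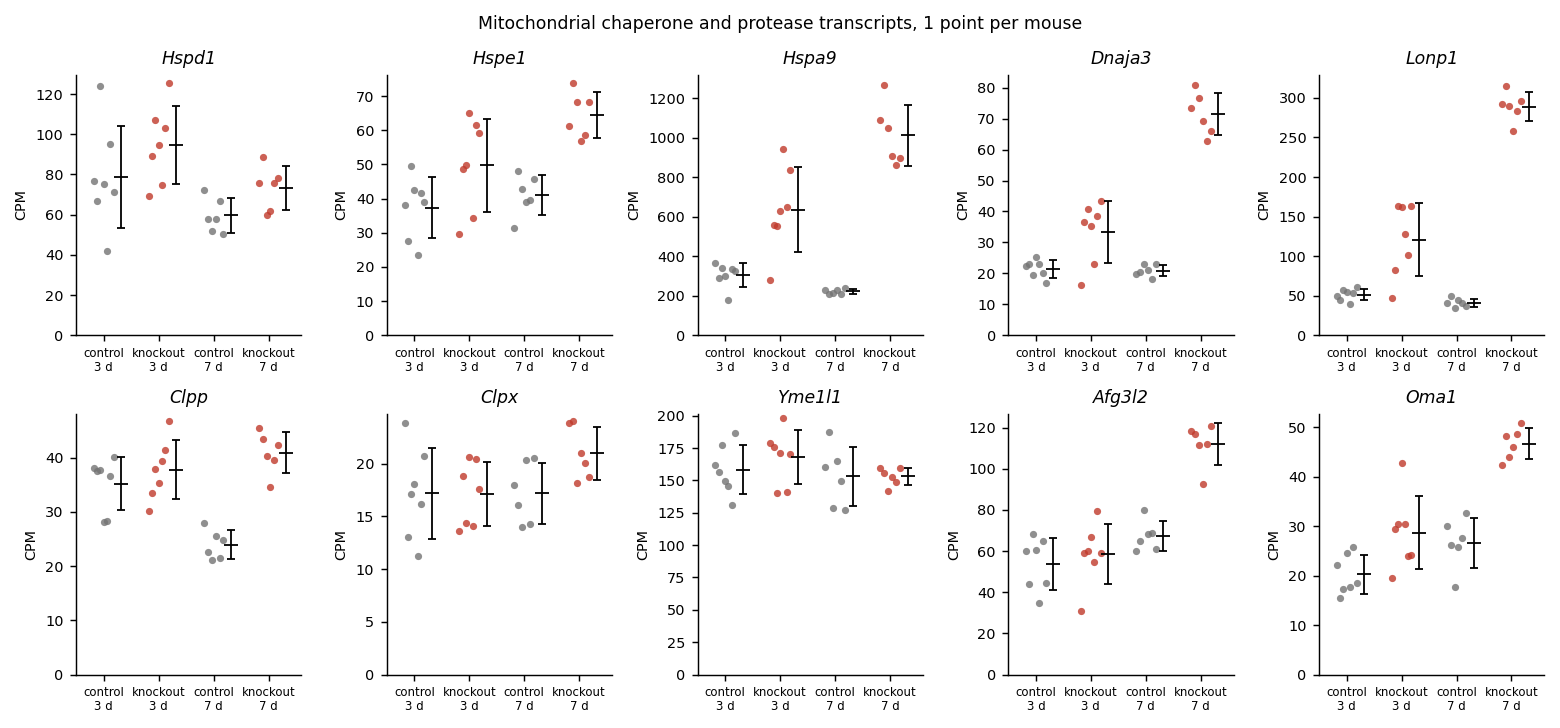
CPM of each of the 10 transcripts, 1 point per mouse, at both days in control (grey) and knockout (red) mice, with the mean and SD (n = 7 per genotype at 3 days, 6 at 7 days). At 7 days the knockout points of *Lonp1*, *Hspa9* and *Dnaja3* stand far above the controls, whereas those of *Yme1l1* lie among them.

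*Lonp1* (chr17:56614297-56626887), an ATP-driven protease of the matrix that degrades oxidized and misfolded proteins, changed most. At 3 days its level was between 39.8 and 60.8 CPM in control mice (median 53.2) and between 47.3 and 164 CPM in knockout mice (median 127). Of the 7 knockout mice, 6 were above all controls, and replicate 1, which had the lowest enterocyte markers, lay within their range. The log2 fold change was 1.34 ± 0.23 (adjusted p = 0.00434), and 1.49 (1.53e-05) without that mouse. That was the highest of the 14 fits with 1 mouse left out, which ran from 1.23 with adjusted p up to 0.0134. At 7 days control mice had 34.0 to 49.1 CPM (median 40.4) and knockout mice 258 to 315 CPM (median 291). The groups were far apart and the knockout mice varied little, with an SD of 18.7 CPM around 289. The log2 fold change was 2.85 ± 0.10, a 7.22-fold rise (adjusted p = 3.16e-13), which ranked 15 among all genes by p.

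*Clpp* (chr17:56990305-56996188) encodes the barrel-shaped peptidase of the other matrix protease, and *Clpx* (chr9:65294260-65330658) the unfoldase that feeds it. At 3 days *Clpp* was at 37.8 ± 5.5 CPM in knockout and 35.2 ± 4.9 CPM in control mice (log2 fold change 0.21 ± 0.12, adjusted p = 0.486). At 7 days *Clpp* lay between 34.6 and 45.4 CPM in knockout mice (median 41.2) and between 21.0 and 27.9 CPM in controls (median 23.7). The groups did not overlap, and *Clpp* rose 1.74-fold (0.80 ± 0.10, adjusted p = 2.89e-06). *Clpx* had few counts, from 42 to 152 per library. It lay between 13.7 and 20.6 CPM in knockout and between 11.3 and 23.8 CPM in control mice at 3 days (0.11 ± 0.18, adjusted p = 0.848). At 7 days the ranges were 18.2 to 24.1 and 14.0 to 20.5 CPM (0.32 ± 0.12, adjusted p = 0.0394). These ranges overlapped, and the call of *Clpx* was lost under DESeq2 (0.296, adjusted p = 0.065), among other settings.

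*Hspa9* encodes mtHSP70, the motor of protein import and a folding chaperone of the matrix. At 3 days control mice had between 181 and 366 CPM (median 323) and knockout mice between 280 and 944 CPM (median 627). Again 6 of the 7 knockout mice were above all controls, and the replicate low in enterocyte markers was not. The log2 fold change was 1.17 ± 0.22 (adjusted p = 0.00954). At 7 days control mice had 208 to 239 CPM (median 222) and knockout mice 864 to 1265 CPM (median 977). The rise was 4.64-fold, with no overlap (2.21 ± 0.11, adjusted p = 3.14e-11).

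*Dnaja3* (chr16:4639989-4707695) encodes a J-domain protein that hands substrates to mtHSP70. Its exons overlap those of *Coro7* and *Vasn* in the annotation, and its counts were whole in all 26 libraries. At 3 days it was between 16.2 and 43.3 CPM in knockout mice (median 36.6) and between 16.7 and 25.2 CPM in controls (median 22.4). In 5 knockout mice it was above all controls and in replicate 1 below them, and the log2 fold change of 0.75 ± 0.19 did not pass (adjusted p = 0.0606). At 7 days it was between 62.9 and 81.0 CPM in knockout mice (median 71.3) and between 18.1 and 23.1 CPM in controls (median 20.7). It rose 3.48-fold with wide separation (1.80 ± 0.10, adjusted p = 1.21e-10).

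Without the 2 libraries low in enterocyte markers, 4 of the 10 genes were called at 3 days. Over all genes 774 were then called, instead of 297 with these libraries kept. *Lonp1* was then at 1.44 (adjusted p = 2.19e-05), *Hspa9* at 1.22 (5.84e-05), *Dnaja3* at 0.91 (0.000983) and *Oma1* at 0.70 (0.0408). This setting was chosen after the data were seen.

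*Hspd1* (chr1:55077835-55088243) and *Hspe1* (chr1:55088132-55091307) encode the chaperonin HSP60 and its co-chaperonin HSP10. Their exons overlap in the annotation, and in the same 8 of 26 libraries both genes held a count ending in 0.5, as reads divided between 2 genes leave, while the other 8 genes had whole counts throughout. At 7 days the genotypes did not overlap for *Hspe1* and overlapped for *Hspd1*. *Hspe1* was between 56.8 and 73.8 CPM in knockout mice (median 64.7) and between 31.3 and 48.0 CPM in controls (median 41.1), a 1.60-fold rise without overlap (0.68 ± 0.11, adjusted p = 5.14e-05). *Hspd1* was between 59.9 and 88.9 CPM in knockout mice (median 75.9) and between 50.6 and 72.5 CPM in controls (median 57.8). Its ranges overlapped, and its rise of 0.32 ± 0.12 (adjusted p = 0.034) was lost in the fit of all 26 libraries (0.336) and with scores of pancreatic and stomach markers as covariates (0.275), where the adjusted p was above 0.05. At 3 days *Hspe1* was at 49.8 ± 13.6 CPM in knockout and 37.4 ± 9.0 CPM in control mice (0.53 ± 0.20, adjusted p = 0.231). *Hspd1* was at 94.8 ± 19.4 and 78.7 ± 25.4 CPM (0.37 ± 0.19, adjusted p = 0.408). Neither gene separated the genotypes at 3 days.

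Some members have near-identical pseudogenes in the genome that were counted as genes of their own. *Hspd1-ps3*, a processed pseudogene (chr11:41498737-41500458), matched *Hspd1* at 99.0% of 1722 bases, but the last 453 bases of the *Hspd1* transcript lie beyond it. Reads of a gene and its pseudogene may have been divided between them by the aligner, so the values of both are uncertain. The values of *Hspe1* carry the same limit. Its 6 pseudogenes in the table held at most 1.52 CPM in any library, and with their counts added *Hspe1* was at 0.52 (adjusted p = 0.239) at 3 days and 0.66 (adjusted p = 7.26e-05) at 7 days.

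*Hspd1-ps3* was at 53.7 ± 25.4 CPM in knockout and 29.3 ± 7.2 CPM in control mice at 3 days (0.98 ± 0.23, adjusted p = 0.0447), with 1 knockout mouse at 109 CPM. At 7 days it was at 22.3 ± 4.1 and 14.4 ± 2.7 CPM (0.67 ± 0.15, adjusted p = 0.00123), and the groups did not overlap. With pseudogene counts added, *Hspd1* was at 95.7 ± 14.2 and 74.0 ± 10.8 CPM at 7 days (0.40, adjusted p = 0.0112). At 3 days the sum gave 0.56 (adjusted p = 0.118), so *Hspd1* stayed on the same side of the threshold at both days. *Hspa9-ps1*, a pseudogene on the X chromosome that matched *Hspa9* at 92.4% of 1904 bases, had 0.8 to 7.4 CPM and added little to *Hspa9*.

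**Figure D2:**
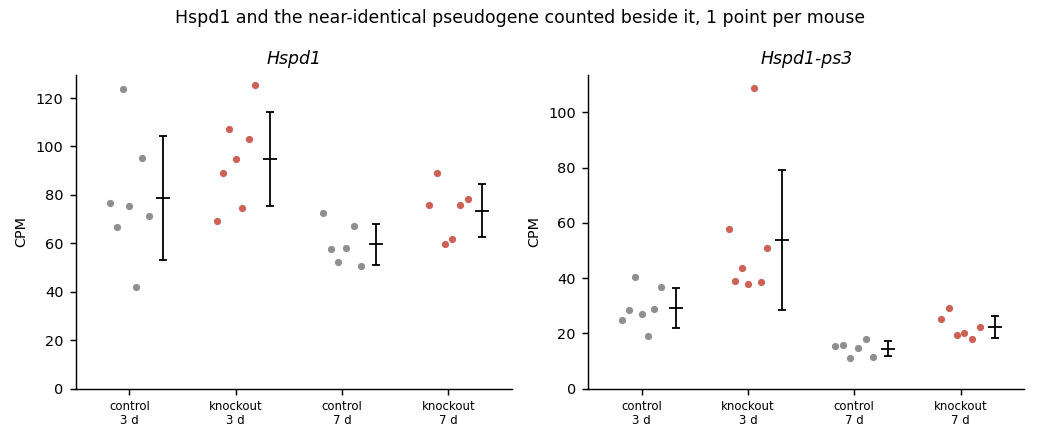
CPM of the chaperonin gene *Hspd1* and of the pseudogene *Hspd1-ps3* counted beside it, 1 point per mouse with mean and SD (n = 7 per genotype at 3 days, 6 at 7 days). At 7 days the 2 genotypes do not overlap for *Hspd1-ps3*, and 1 knockout mouse of day 3 stands out for it at 109 CPM.

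Of the 3 inner membrane proteases, 2 rose at 7 days. *Yme1l1* (chr2:23156369-23199260), which degrades proteins on the intermembrane side of the inner membrane and cuts the fusion protein OPA1, did not pass at either day. It was between 142 and 160 CPM in knockout and between 127 and 187 CPM in control mice at 7 days (log2 change 0.03 ± 0.10, adjusted p = 0.843). At 3 days it was between 141 and 198 and between 131 and 186 CPM (0.20 ± 0.12, adjusted p = 0.529). The genotypes overlapped at both days.

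*Afg3l2*, a subunit of the m-AAA protease on the matrix side, was at 58.5 ± 14.6 CPM in knockout and 53.8 ± 12.7 CPM in control mice at 3 days (0.24 ± 0.19, adjusted p = 0.646). At 7 days it was between 92.4 and 121 CPM in knockout mice (median 114) and between 60.1 and 80.0 CPM in controls (median 66.7). It rose 1.69-fold with no overlap (0.76 ± 0.11, adjusted p = 1.35e-05).

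*Oma1* (chr4:103313812-103371868) encodes a stress-activated peptidase that cuts OPA1 and DELE1. At 3 days it was between 19.6 and 42.9 CPM in knockout mice (median 29.4) and between 15.4 and 25.8 CPM in controls (median 18.6), and the difference of 0.63 ± 0.19 did not pass (adjusted p = 0.121). At 7 days it was between 42.4 and 50.9 CPM in knockout mice (median 47.1) and between 17.6 and 32.7 CPM in controls (median 26.9). It rose 1.79-fold with no overlap (0.84 ± 0.11, adjusted p = 6.67e-06).

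**Figure D3:**
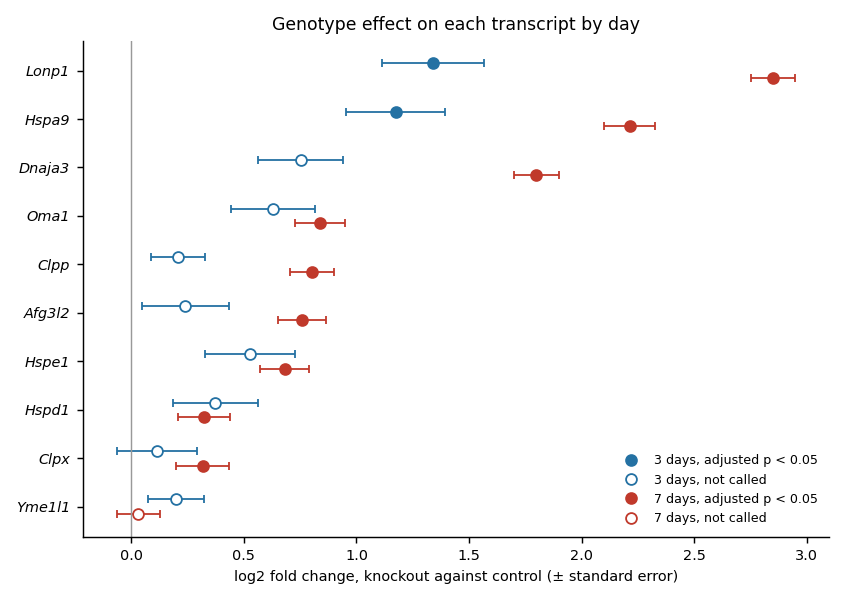
Log2 fold change of each transcript, knockout against control, with SE, at 3 days (blue) and 7 days (red); filled circles passed an adjusted p of 0.05. *Lonp1*, *Hspa9*, *Dnaja3* and *Clpp* moved furthest to the right between the days, and *Hspd1* and *Yme1l1* lay no further right at 7 days.

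Whether the genotype effect differed between the days was tested in a model of all 26 libraries, as the interaction of genotype and day. It was larger at 7 days for *Lonp1* (by 1.53 ± 0.26, adjusted p = 8.99e-05), *Dnaja3* (1.07 ± 0.23, 0.000992), *Hspa9* (1.06 ± 0.26, 0.00403) and *Clpp* (0.62 ± 0.15, 0.00364). These 4 of 10 compare with 18.4% of all genes called in either direction and 8.64% called upwards. *Afg3l2*, which was called at 7 days only, had a difference between the days of 0.54 ± 0.23 that did not pass (adjusted p = 0.111). The differences of *Oma1* (0.23 ± 0.23), *Clpx* (0.22 ± 0.21), *Hspe1* (0.17 ± 0.24), *Hspd1* (-0.03 ± 0.23) and *Yme1l1* (-0.15 ± 0.15) did not pass either.

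Control mice of the days were also compared, since the levels of the controls enter the interaction. With TMM, 5 of the 10 genes were higher in control mice of day 7 than of day 3, against 36.0% of all genes called and 19.7% called higher. *Oma1* (0.75 ± 0.14, adjusted p = 0.000646) and *Afg3l2* (0.69 ± 0.15, 0.00147) differed most, followed by *Hspe1* (0.50 ± 0.16, 0.0189), *Dnaja3* (0.33 ± 0.12, 0.0383) and *Yme1l1* (0.31 ± 0.11, 0.0385). *Lonp1* (0.03 ± 0.11) and *Hspa9* (-0.09 ± 0.13) did not pass. For none of the 10 did all control mice of day 7 lie above all of day 3, as 3.94% of genes did, and *Clpp* in CPM lay lower in every control mouse of day 7. With TMM *Clpp* did not pass (-0.19 ± 0.11, adjusted p = 0.182) but was called lower with the filterByExpr filter (-0.28, adjusted p = 0.0442) and without control replicate 4 or 5 of day 3.

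These directions depend on the scaling. With library totals alone the median of all genes between the control groups was -0.41 on the log2 scale, against -0.06 with TMM, and then 1 of the 10 genes was higher and 3 were lower. The 3 lower genes were *Clpp* (-0.555, adjusted p = 0.00125), *Hspa9* (-0.456, 0.0121) and *Lonp1* (-0.332, 0.029). *Dnaja3* (-0.039) and *Yme1l1* (-0.047) turned below 0 without passing. All genes called split into 1977 higher and 7372 lower with totals, and into 4077 and 3364 with TMM. The control groups differed in cell content too: 10 of 10 enterocyte markers were higher and 7 of 7 smooth muscle markers lower at 7 days. No batch is named in the labels, and one that followed the day of sampling cannot be told apart from it.

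Transcripts of proteins that work together, or in 1 pair cut the same protein, were compared as the log2 ratio of their counts within a mouse. No scaling of the library can change this ratio. The ratio was tested between genotypes at each day with a two-sided exact permutation test, 8 tests in all. At 7 days the ratio of *Clpx*, the unfoldase, to *Clpp*, the peptidase, was -0.96 ± 0.17 in knockout and -0.48 ± 0.15 in control mice (SD, n = 6 each), a difference of -0.48 (exact permutation p = 0.00216, adjusted p = 0.00577). The ratio of *Dnaja3* to *Hspa9* was -3.81 ± 0.09 and -3.41 ± 0.12, lower by 0.40 in knockout mice (exact permutation p = 0.00216, adjusted 0.00577). All 6 knockout mice were below all 6 controls for both ratios.

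The ratio of *Oma1* to *Yme1l1*, the inner membrane proteases that cut OPA1 at different sites, was -1.71 ± 0.10 and -2.53 ± 0.34 at 7 days, higher by 0.82 in knockout mice (exact permutation p = 0.00216, adjusted 0.00577), with all 6 above all controls. The ratio of *Hspd1* to *Hspe1* was 0.18 ± 0.20 and 0.54 ± 0.40, and its difference of -0.36 did not pass (exact permutation p = 0.0758, adjusted 0.134). Both genes hold counts ending in 0.5 in the same libraries, and the part of divided reads in their ratio was not tested. The p of 0.00216 is the smallest that 6 against 6 mice can give. At 3 days, none of the 4 ratios passed (n = 7 each; exact permutation, adjusted p from 0.134 for *Oma1* to *Yme1l1*, a difference of 0.40, to 0.587 for *Clpx* to *Clpp*, -0.09). *Dnaja3* to *Hspa9* then differed by -0.43 (exact permutation, adjusted p = 0.158), no less than at 7 days, with SDs of 0.52 in knockout and 0.45 in control mice. *Clpx* to *Clpp* was -1.14 ± 0.29 in knockout and -1.05 ± 0.33 in control mice. Between the days its control mean differed more than its knockout mean, which was not tested.

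**Figure D4:**
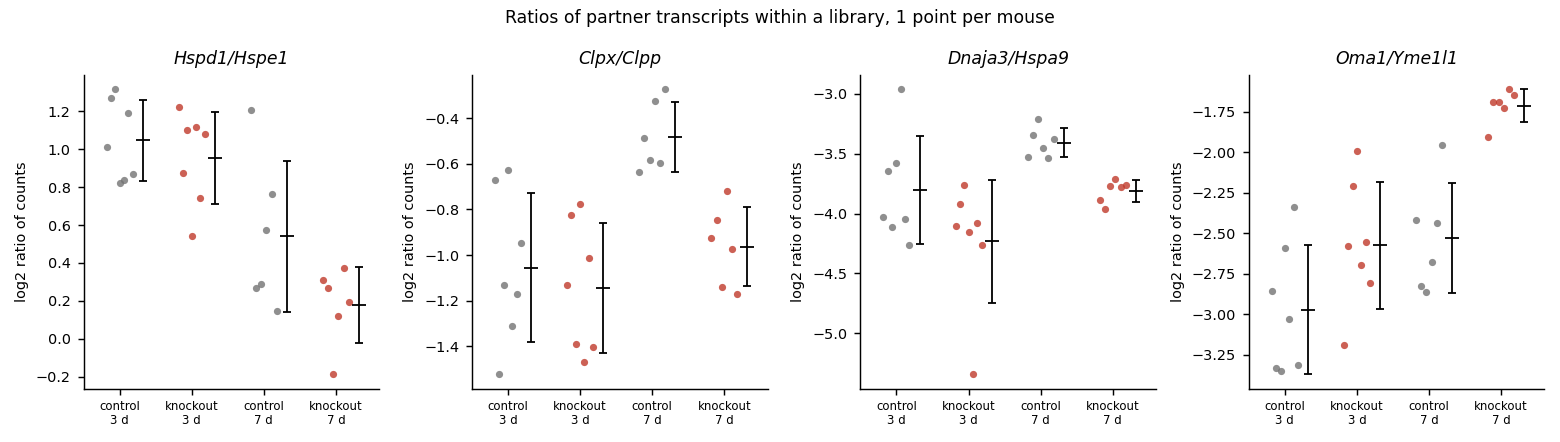
Log2 ratio of the counts of the 2 transcripts of each pair within a library, 1 point per mouse, with mean and SD (n = 7 per genotype at 3 days, 6 at 7 days). At 7 days all knockout mice lie below all controls for *Clpx*/*Clpp* and *Dnaja3*/*Hspa9* and above them for *Oma1*/*Yme1l1*, while the groups overlap for *Hspd1*/*Hspe1*.

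Of 12 correlations (3 pairs in 4 groups of 6 or 7 mice, log2 CPM with TMM factors), 0 passed after adjustment, with the lowest adjusted permutation p at 0.100, and 3 had an unadjusted p under 0.05. *Hspd1* and *Hspe1* gave r = 0.89 in control mice of day 3 (rho = 0.89, n = 7, exact permutation p = 0.00972 for r and 0.0123 for rho, adjusted 0.100 and 0.148), and r = 0.67 without the 2 mice farthest from the median. Reads divided between these 2 genes enter both values, and their part in the correlation was not tested. In knockout mice of day 3 they gave r = 0.88 (rho = 0.43, exact permutation p = 0.0234 and 0.354), which rests on 2 mice, since r without them was -0.52. In controls of day 7 it was -0.64 (rho = -0.54, exact permutation p = 0.156 and 0.297). *Hspa9* and *Dnaja3* gave r = 0.94 in knockout mice of day 7 (rho = 0.77, n = 6, exact permutation p = 0.025 and 0.103, adjusted 0.100 and 0.411), and 0.94 without the 2 farthest mice. In controls of day 7 this pair gave r = 0.68 (rho = 0.66, exact permutation p = 0.142 and 0.175). In knockout mice of day 3 it gave r = 0.57 (rho = -0.11, exact permutation p = 0.176 and 0.84), and -0.51 without the 2 farthest mice. In controls of day 3 it gave r = -0.55 (rho = -0.46, exact permutation p = 0.211 and 0.302).

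Other genes of mitochondrial protein quality control were taken from lists of textbook members. Their counts at 7 days stand against 38.5% of all genes called and 19.7% called higher, and those at 3 days against 1.43%. Of 11 partners of mtHSP70 and other mitochondrial chaperones, 0 passed at 3 days with edgeR or DESeq2 (1 at an unadjusted p under 0.05), and 6 were higher and 1 lower at 7 days (median log2 fold change 0.57). *Clpb*, a disaggregase of the intermembrane space, rose most at 7 days (1.25 ± 0.12, adjusted p = 1.04e-07), followed by *Grpel2*, a nucleotide exchange factor of mtHSP70 (0.88 ± 0.13, 1.66e-05), *Dnajc15*, a J protein of the import motor (0.79 ± 0.10, 6.1e-06), and *Timm44*, which tethers mtHSP70 to the import channel (0.69 ± 0.11, 5.18e-05). Of 13 other mitochondrial proteases, 0 passed at 3 days with edgeR (2 at an unadjusted p under 0.05) and 1 with DESeq2, and 5 were higher and 2 lower at 7 days (median 0.35), against 19.7% of all genes higher. *Afg3l1*, the mouse paralog of *Afg3l2*, led with 0.89 ± 0.10 (adjusted p = 7.02e-07), and *Pitrm1*, which degrades cleaved targeting peptides, rose by 0.66 ± 0.13 (0.000682). The aminopeptidase *Xpnpep3* rose by 0.62 ± 0.16 (0.00391), and *Immp2l*, of the inner membrane peptidase, by 0.52 ± 0.19 (0.0371). The 2 lower proteases were *Immp1l* (-0.39 ± 0.12, 0.0175) and *Spg7* (-0.28 ± 0.10, 0.0312).

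Of 10 scaffolds and substrates of the inner membrane proteases, 0 passed at 3 days with edgeR or DESeq2 (1 at an unadjusted p under 0.05), and 3 were higher and 0 lower at 7 days (median 0.19), a share near the 38.5% of all genes called and 19.7% called higher. The 3 were *Pgam5*, a phosphatase that the inner membrane proteases process (1.03 ± 0.14, adjusted p = 8.32e-06), *Timm17a*, an import channel subunit that YME1L1 degrades (0.61 ± 0.09, 2.18e-05), and the prohibitin *Phb2* (0.40 ± 0.09, 0.00189).

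Of 8 regulators of the mitochondrial unfolded protein response, 3 were higher and 0 lower at 3 days (4 higher with DESeq2), and 5 were higher and 1 lower at 7 days (medians 0.36 and 0.95). *Atf5* was between 149 and 486 CPM in knockout and between 32.5 and 51.1 CPM in control mice at 3 days, without overlap (3.24 ± 0.23, adjusted p = 1.08e-06). At 7 days it had 380 to 453 and 23.4 to 34.4 CPM (3.92 ± 0.12, 5.33e-14). *Atf4* also did not overlap at 3 days, with 447 to 937 against 230 to 297 CPM (1.44 ± 0.15, adjusted p = 5.87e-05). At 7 days *Atf4* was higher by 1.87 ± 0.11 (adjusted p = 1.47e-10). *Ddit3* was higher by 1.88 ± 0.26 at 3 days (adjusted p = 0.000919) and by 4.06 ± 0.15 at 7 days (6.32e-13). *Cebpb*, a binding partner of ATF4 and CHOP, rose at 7 days (1.14 ± 0.18, adjusted p = 6.11e-05), as did the deacetylase *Sirt3* (0.76 ± 0.16, 0.000695). *Ubl5*, a ubiquitin-like protein tied to this response in worms, fell at 7 days (-0.51 ± 0.11, adjusted p = 0.00106).

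For comparison, chaperones of other compartments were listed. Of 12 cytosolic heat shock proteins and co-chaperones, 1 was higher and 0 lower at 3 days with edgeR (3 at an unadjusted p under 0.05) and 3 were higher with DESeq2. At 7 days 5 were higher and 1 lower (median 0.41), against 38.5% of all genes called. *Hsp90ab1*, a constitutive HSP90, rose at 3 days (0.59 ± 0.11, adjusted p = 0.0121) and at 7 days (0.85 ± 0.12, 1e-05), and *Hsph1* (1.15 ± 0.29, 0.00352), *Hsp90aa1* (0.93 ± 0.17, 0.000188) and *Dnaja2* (0.66 ± 0.11, 7.7e-05) rose at 7 days. Of 12 chaperones of the endoplasmic reticulum, 0 passed at 3 days with edgeR or DESeq2 (2 at an unadjusted p under 0.05), and 2 were higher and 8 lower at 7 days (median -0.62). *Sdf2l1* (-1.85 ± 0.22, adjusted p = 2.25e-06), *Pdia4* (-1.23 ± 0.17, 1.32e-05) and *Pdia3* (-0.76 ± 0.12, 3.44e-05) fell, whereas *Dnajb9*, a co-chaperone of BiP, rose (1.46 ± 0.13, 5.24e-08). The medians of the 10 genes were 0.45 and 0.78 at 3 and 7 days.

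**Figure D5:**
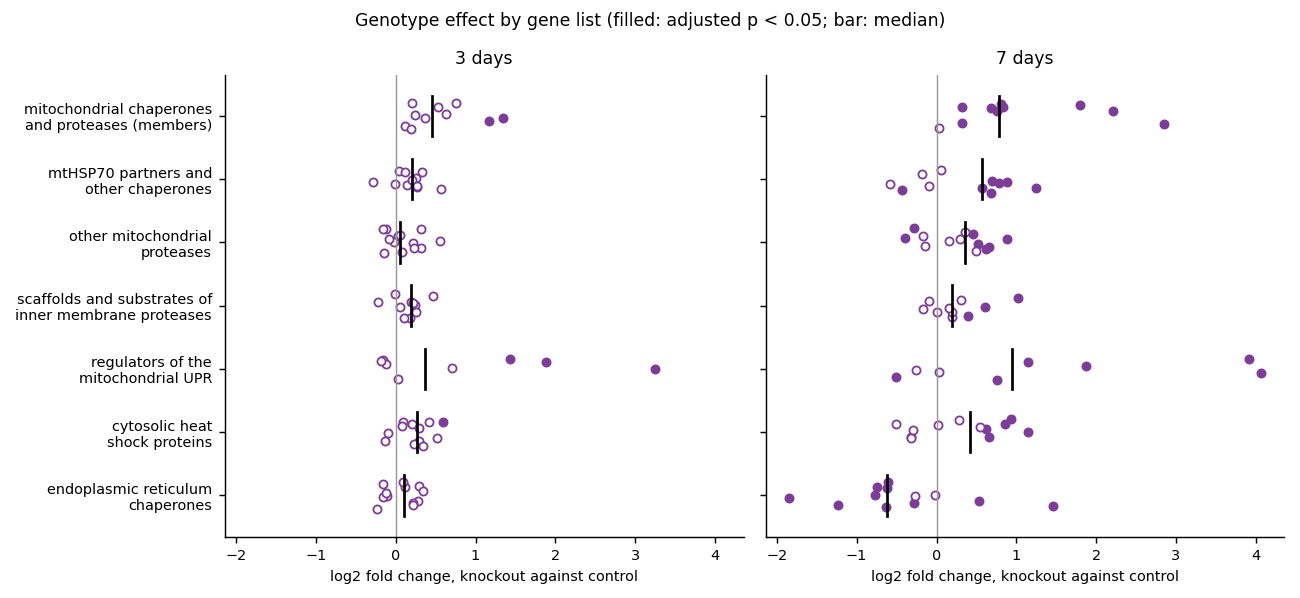
Log2 fold change, knockout against control, of each gene in the 10 mitochondrial chaperones and proteases and in 6 lists of related genes at 3 days (left) and 7 days (right); filled points passed an adjusted p of 0.05 and bars are medians. At 7 days the points of the endoplasmic reticulum chaperones lie mostly to the left of 0, and those of the 10 genes to the right.

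The genes whose pattern was most like that of *Lonp1*, the member with the smallest p at 7 days, were sought, by Pearson's r of log2 CPM over all 26 libraries, among the 6963 genes that averaged 100 counts or more. They were *Eif5* (r = 0.977), *Ero1l* (0.975), *Gars* (0.975), *Phf10* (0.974) and *Btc* (0.973). The libraries share genotype and day, so these r describe a pattern over the groups. Among the 10 genes, *Hspa9* ranked 13 (0.961), *Dnaja3* 78 (0.93) and *Clpp* 283 (0.872), and the others that could be ranked ran from *Oma1* (0.81) over *Hspe1* (0.8), *Afg3l2* (0.727) and *Hspd1* (0.519) to *Yme1l1* (0.38). *Clpx* had too few counts to be ranked.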

How the data were processed

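Estimated counts per gene and library, as deposited by the authors, were re-analysed for 26 mice in 4 groups taken from the sample labels. The authors prepared 3′ QuantSeq libraries, trimmed reads with cutadapt 2.10, aligned them to GRCm38 with Subread, and counted exonic reads with featureCounts 2.0.1, dividing reads on several genes into fractions. The featureCounts options printed in the study's methods include none that sets the strand. A deposited CPM table (counts divided by the library total) repeats these values, and CPM here were computed from the counts.

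Whole counts had been assumed in the design, but only 95.0% of values were whole (within 1e-09), so all were rounded before edgeR 4.0.16 in R 4.3.3 (estimateDisp, glmQLFit, glmQLFTest, TMM) was fitted on all genes. Genes with a zero count in more than 50% of the libraries of either group were left out. SE is the size of the log2 fold change over the square root of F. The 92 spike-in entries had 0 counts. Depth was 3720168 to 6338016 counts, and 3 counts, the floor, were at most 0.806 CPM. The text names all 10 genes, pseudogenes, called regulators, up to 4 called genes with the largest change at 7 days per other list, and the 5 genes most like *Lonp1*. The 2 lower proteases are named besides. The 10 genes and the lists were chosen with earlier results of these data known. Ratios used 0.5 added counts. Alternatives were DESeq2 1.42.0, other scalings and filters, covariates, a replicate block, added pseudogenes and left-out libraries. The code was tested on simulated data. The targeted gene, and reads that *Hspe1* may share with genes other than *Hspd1* and its pseudogenes, are not reported here. No pair of libraries was identical, and the labels give separate samples, read as 1 mouse each, so p-values measure the spread between these samples. Promoters came from RefSeq; pseudogenes were aligned with Biopython 1.88.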

Additional observations from a re-analysis of the deposited data

Results flagged for a closer look

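In 56 groups of values (each of the 10 genes and 4 ratios in 4 groups), 3 held a mouse far from the others of its group, against 2.8 that chance gives. *Hspa9* was at 180.6 CPM in control replicate 5 of day 3, where the next lowest control had 287.9 CPM, and this library was low in enterocyte markers. In knockout replicate 4 of day 7 *Afg3l2* had 92.38 CPM against 111.5 CPM in the next lowest, and this library held pancreatic acinar markers at 12615 CPM. The log2 ratio of *Dnaja3* to *Hspa9* was -5.341 in knockout replicate 5 of day 3 and -4.266 in the next lowest. The causes were not tested.

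The genotype effect differed between the days, by the interaction term of edgeR, for *Lonp1* (1.532 on the log2 scale), *Dnaja3* (1.069), *Hspa9* (1.06) and *Clpp* (0.6156). Pseudogenes of the chaperone genes, which lie outside the 10 genes, were also higher in knockout mice: *Hspd1-ps3* at 3 days (0.9767) and 7 days (0.6651), and *Hspa9-ps1* at 7 days (1.275). Reads of the genes and their pseudogenes may have been divided between them, which was not tested on the reads.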

How the results depend on the processing

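At 3 days the 2 genes called became 4 with DESeq2, with all 26 libraries in one fit and without the libraries low in enterocyte markers (added after the data were seen), *Dnaja3* and *Oma1* joining in each, and 1 with the replicate number as a block, which *Hspa9* left (1.118, adjusted p = 0.124). With each mouse left out the count was 2 to 4, with 4 without knockout replicate 1, and over all genes 99 (replicate block) to 810 (all libraries) were called instead of 297. At 7 days 9 became 3 at 2-fold or more, and was 7 to 9 under the other settings and with each mouse left out, *Clpx* and *Hspd1* being those lost. Between control groups 5 became 3 with DESeq2 size factors, without a filter, with all 26 libraries and with the replicate block, and 0 at 2-fold or more, and was 3 to 5 with each mouse left out, with 3 without control replicates 2 or 6 of day 3. The interaction called 3 to 5 genes instead of 4. With library totals *Clpx* at 3 days (-0.005), *Yme1l1* at 7 days (-0.004), *Hspd1* in the interaction (0.033) and, between control groups, *Lonp1* (-0.332), *Dnaja3* (-0.039) and *Yme1l1* (-0.047) changed sign, and calls at 3 days over all genes split 125 to 115 instead of 230 to 67. *Lonp1* between control groups also fell below 0 with DESeq2 (-0.014), its size factors (-0.013), filterByExpr (-0.062), all 26 libraries (-0.022) and without the libraries low in enterocyte markers (-0.078). With each mouse left out it ran from -0.078 to 0.069, *Hspd1* there from -0.199 to 0.115 and in the interaction from -0.183 to 0.066, and *Yme1l1* at 7 days from -0.036 to 0.066. The ratio of *Hspd1* to *Hspe1* at 3 days was 0.101 with pseudogenes added. With library totals the correlation of *Hspd1* and *Hspe1* in control mice of day 3 (0.902) and that of *Hspa9* and *Dnaja3* in knockout mice of day 7 (0.944) passed (adjusted permutation p = 0.0417). The correlation of *Hspd1* and *Hspe1* in knockout mice of day 3 ran from 0.041 to 0.841 over 2 settings, library totals and added pseudogenes. Same-numbered mice correlated between -0.51 and 0.68. The control most like a knockout mouse had its number only for replicates 4 and 6 of day 3 and 3 and 4 of day 7. Whether the numbers pair the mice was not tested further. The block took 4 of 40 results of single genes across the threshold and turned 0. Under it the 7 day ratios of *Clpx* to *Clpp* (-0.48), *Dnaja3* to *Hspa9* (-0.404) and *Oma1* to *Yme1l1* (0.819) had the same differences but an adjusted permutation p of 0.0833, each at p = 0.0312, the smallest that 6 pairs allow, so this says nothing of their stability. The causes were not tested. For *Clpx*, 42 to 152 counts per library limit the precision.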
